A study of Mus musculus with 18 samples.

Results

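The genes described here encode enzymes that make, carry or depend on vitamin C, together with the enzymes that write and erase DNA methylation. They were taken as a list of 43 named genes, and 42 of them could be scored among 21779 protein-coding genes. Tmlhe, which encodes the first hydroxylase of carnitine synthesis, was not scored because its position in the gene table could not be placed against the peak lists. The 42 genes fall into 10 enzyme classes and were scored for H3K27me3, the repressive histone modification that Polycomb repressive complex 2 deposits.

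H3K27me3 was mapped by CUT&Tag, in which an antibody tethers a transposase that cuts the DNA around the mark. Each library came from 1 headfold, the anterior part of the embryo that gives rise to the brain, at embryonic day 8.5. All embryos of all 4 groups were Gulo-/-, so they lacked the last enzyme of vitamin C synthesis, and no group with a functional Gulo gene entered the comparisons. Their background was 129 or B6, and vitamin C was supplied at 3.3 g/l in the drinking water (AAplus) or not at all (AAmin). Each of the 4 groups held 3 libraries, from 2 female embryos and 1 male embryo. The replicates of B6 are numbered 1, 2 and 4, and the 3 B6 embryos with vitamin C shared 1 timed pregnancy, whereas the other 9 embryos each came from a pregnancy of their own. Of the 18 samples in the series, 4 IgG controls and 2 further H3K27me3 samples were not analysed here. The labels do not give the amount of vitamin C in the embryos.

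Vitamin C keeps the iron of many 2-oxoglutarate-dependent dioxygenases in its active, reduced form. Members of this enzyme family hydroxylate collagen, mark HIF transcription factors for degradation, oxidise 5-methylcytosine and remove methyl groups from histones. H3K27me3 covers the promoters of silent developmental genes in broad domains, most of them rich in CpG dinucleotides, while promoters of widely expressed genes usually lack it.

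Peak numbers per library ran from 748 to 4726 and covered lengths from 3.58 to 31.7 Mb, and 651 to 3753 protein-coding genes (2.99% to 17.2%) carried a peak. A gene was called marked in a library when a peak overlapped the gene, or the 1 kb on either side of it, by 1 bp or more. Sequencing depth is unknown, so a gene with no peak was not called at an unknown depth, which is not the same as a gene without the mark. As a check of the assay, all 39 Hox genes, which Polycomb silences in anterior tissue, carried a peak in 10 or more libraries. Of 30 housekeeping genes 1 was marked in any library and 0 in at least 10. In 2 libraries, replicate 2 of B6 with vitamin C and replicate 1 of B6 without, the median peak width was 1.41 and 1.32 kb, against 3.93 to 8.45 kb in the other 10. RNA was not measured, so the tissue could not be checked by expression, and nothing here shows whether a gene was active.

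Of the 42 enzyme genes, 6 (14.3%) were marked in at least 1 library, whereas 20.3% of all protein-coding genes were. None of the 42 was marked in as many as 6 libraries, a number that 11.1% of protein-coding genes reached. At least 10 marked libraries were found for 0 of the 42 and for 5.96% of all protein-coding genes. The 6 genes were Dnmt3a (5 libraries), P4ha3 (3), Tet2 (2), Kdm6b (2), P4ha2 (1) and Kdm2b (1). The other 36 had no peak in any library. These counts are set beside each other as a description, since the list was drawn up by name and no test was made over it.

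**Figure D1:**
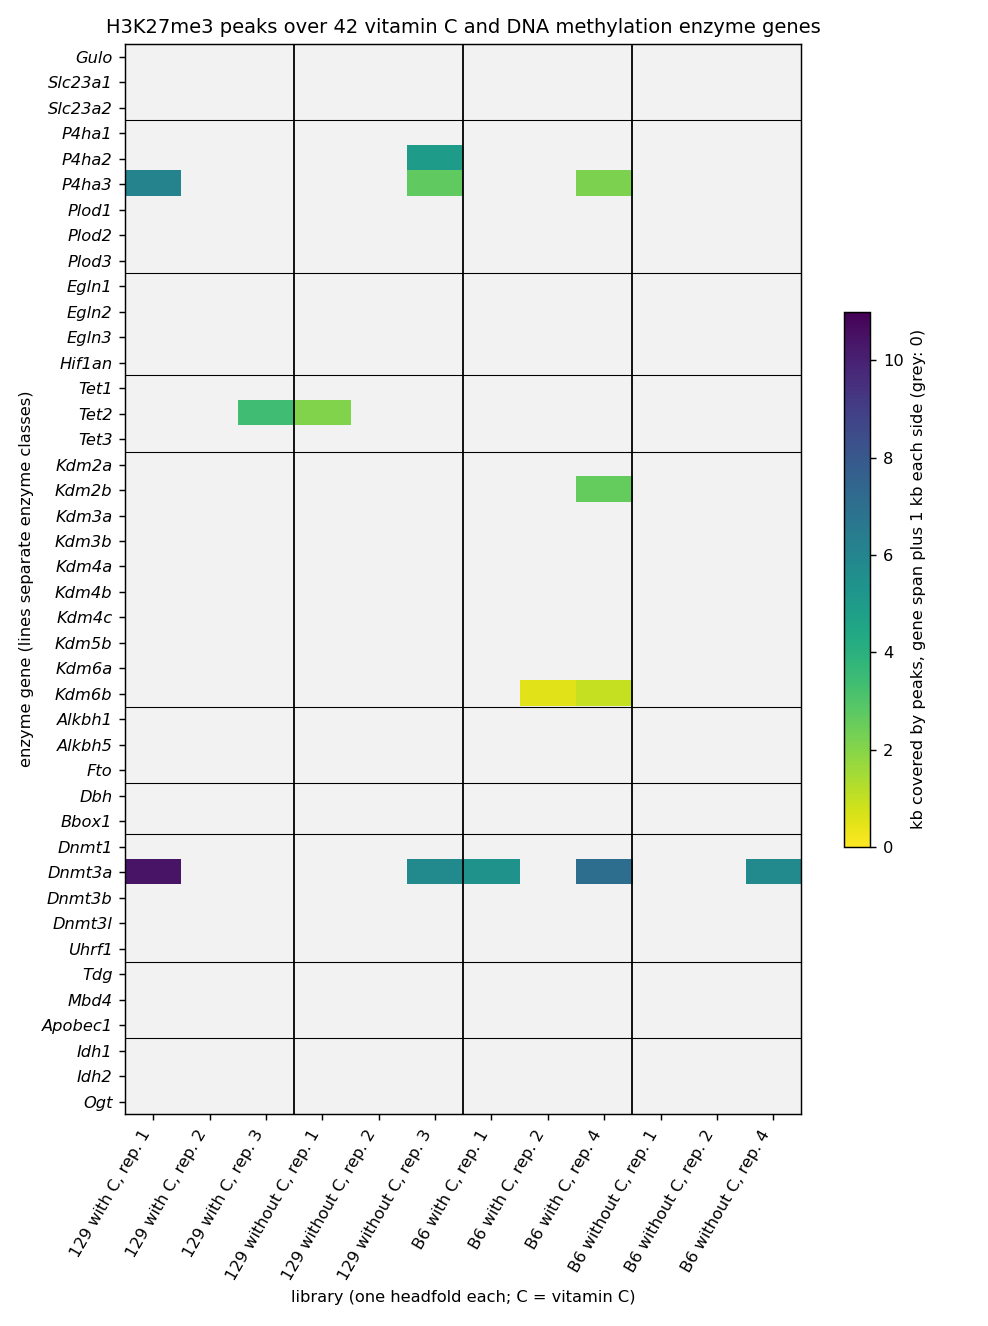
Peaks at the enzyme genes in each library. Rows are the 42 scored genes by enzyme class, columns are the 12 libraries by group, and the colour gives the length in kb covered by peaks within the gene extended by 1 kb at each end (grey for 0). Coloured cells occur in 6 rows, with 5 in the row of Dnmt3a, and no row is coloured in more than 5 columns.

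The genes of the list are long, which gives a peak more room to fall in. Their median length was 39.5 kb (8.14 to 355 kb), against 17.2 kb for all protein-coding genes. Among the 6061 protein-coding genes at least as long as the median enzyme gene, 29.5% were marked in at least 1 library and 6.55% in at least 10. The 6 marked enzyme genes had a median length of 57.8 kb and the 36 unmarked ones 39.5 kb.

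**Figure D2:**
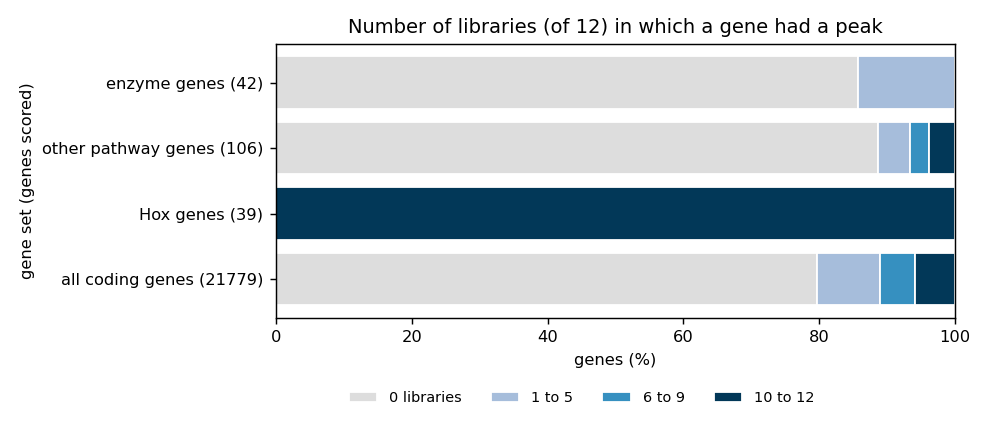
Share of genes by number of libraries in which they were marked. The horizontal axis is the percent of genes in each set and the shades are classes of libraries, for the 42 enzyme genes, 106 other genes of the same pathways, 39 Hox genes and all 21779 protein-coding genes. The enzyme genes stop at 5 libraries (14.3% in 1 to 5), whereas every Hox gene lies in the class of 10 or more.

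The upstream sequences of the genes with a peak over their start are shown first, since the peaks are described by their place relative to these starts. They are the 250 bases before an annotated start, from RefSeq on the assembly GRCm38.p6, written 5' to 3' on the gene's strand with each CpG in capitals. Of the 42 scored genes 35 had an entry. Gulo, Slc23a1, Plod2, Kdm2a, Kdm3b, Kdm4b and Kdm6b had none. Dnmt3a, the de novo DNA methyltransferase, has 3 annotated starts, and the first (chr12:3806730-3806979, plus strand) and the third (chr12:3891494-3891743, plus strand) show one start inside the peaks and one outside them. Tet2, a 5-methylcytosine dioxygenase, lies on the minus strand (chr3:133544391-133544640). P4ha3 (chr7:100285270-100285519, plus strand) and P4ha2 (chr11:54100674-54100923, plus strand) encode catalytic alpha subunits of collagen prolyl 4-hydroxylase.
Dnmt3a first start: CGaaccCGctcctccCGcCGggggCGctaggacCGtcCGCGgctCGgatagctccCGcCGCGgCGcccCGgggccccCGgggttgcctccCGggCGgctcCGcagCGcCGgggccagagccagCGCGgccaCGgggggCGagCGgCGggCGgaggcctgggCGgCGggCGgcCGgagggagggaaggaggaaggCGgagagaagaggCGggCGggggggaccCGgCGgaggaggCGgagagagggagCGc
Dnmt3a internal start: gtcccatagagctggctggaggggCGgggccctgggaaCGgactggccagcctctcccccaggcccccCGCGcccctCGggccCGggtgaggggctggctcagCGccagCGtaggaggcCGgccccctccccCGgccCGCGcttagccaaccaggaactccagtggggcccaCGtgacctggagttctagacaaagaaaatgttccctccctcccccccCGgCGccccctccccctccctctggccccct
Tet2: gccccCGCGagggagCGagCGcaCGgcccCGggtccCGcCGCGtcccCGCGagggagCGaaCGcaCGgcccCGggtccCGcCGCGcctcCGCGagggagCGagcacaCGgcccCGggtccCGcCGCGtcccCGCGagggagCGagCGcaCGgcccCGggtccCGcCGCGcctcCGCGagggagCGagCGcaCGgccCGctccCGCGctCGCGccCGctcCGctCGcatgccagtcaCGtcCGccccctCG
P4ha3: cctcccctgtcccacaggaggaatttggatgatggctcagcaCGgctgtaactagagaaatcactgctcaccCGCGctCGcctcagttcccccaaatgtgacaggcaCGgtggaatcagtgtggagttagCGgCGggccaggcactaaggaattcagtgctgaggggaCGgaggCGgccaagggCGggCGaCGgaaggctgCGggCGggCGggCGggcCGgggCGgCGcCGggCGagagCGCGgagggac
P4ha2: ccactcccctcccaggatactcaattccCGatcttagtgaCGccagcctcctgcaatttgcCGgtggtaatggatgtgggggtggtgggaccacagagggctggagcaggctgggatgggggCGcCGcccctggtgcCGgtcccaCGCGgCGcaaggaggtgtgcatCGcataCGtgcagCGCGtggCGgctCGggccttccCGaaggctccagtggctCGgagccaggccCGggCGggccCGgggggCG

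Upstream sequences of 3 relatives without a peak in any library follow for contrast. Egln1, a HIF prolyl hydroxylase (chr8:124949255-124949504, minus strand), has as many CpGs as Tet2. Tet1 (chr10:62887325-62887574, minus strand) and Dnmt3b (chr2:153649199-153649448, plus strand) belong to the same enzyme families as Tet2 and Dnmt3a.
Egln1: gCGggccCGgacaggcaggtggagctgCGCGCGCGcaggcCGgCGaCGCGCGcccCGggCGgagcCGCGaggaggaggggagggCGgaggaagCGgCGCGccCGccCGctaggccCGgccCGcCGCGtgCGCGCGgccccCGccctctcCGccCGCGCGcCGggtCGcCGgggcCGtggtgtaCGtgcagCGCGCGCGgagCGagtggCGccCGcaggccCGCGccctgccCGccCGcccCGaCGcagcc
Tet1: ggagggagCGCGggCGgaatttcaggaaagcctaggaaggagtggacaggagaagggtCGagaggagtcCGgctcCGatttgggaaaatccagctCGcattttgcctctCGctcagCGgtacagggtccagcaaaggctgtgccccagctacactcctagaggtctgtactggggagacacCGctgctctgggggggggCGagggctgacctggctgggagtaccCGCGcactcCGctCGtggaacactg
Dnmt3b: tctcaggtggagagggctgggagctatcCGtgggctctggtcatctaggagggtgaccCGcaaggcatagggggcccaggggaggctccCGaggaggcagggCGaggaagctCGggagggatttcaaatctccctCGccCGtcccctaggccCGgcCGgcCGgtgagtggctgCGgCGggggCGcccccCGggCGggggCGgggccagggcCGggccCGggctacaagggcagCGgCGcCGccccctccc

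The only motif counted was CG, which reads the same on both strands. At least 1 CG was present in 93.4% of the 21263 upstream sequences of protein-coding genes. The 250 bases held 51 CpGs in Tet2 and in Egln1, the 99.9th percentile of those sequences. Dnmt3a had 38 before its first start, 40 before the second and 15 before the third. The count was 23 in P4ha3 and 21 in P4ha2, and likewise 21 in Dnmt3b and 15 in Tet1, which carried no peak. Taking for each gene its entry richest in CpG, the 35 enzyme genes had a median of 18 CpGs (quartiles 14.5 and 23.5), against 11 (3 and 20) over 17492 protein-coding genes. The 35 genes had 52 entries and the 17492 had 21263, fewer per gene. Choosing the richest entry favours genes with more entries, and its part in this contrast was not tested. Protein-coding genes marked in at least 10 libraries had a median of 16.

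A peak lay over the upstream sequence in at least 1 library for 4 of these 35 genes (11.4%) and for 14.6% of the 17492. Among genes at or above the overall median of CpG, the share was 4 of 30 (13.3%) for the enzymes and 20.2% for all. Below that median it was 0 of 5 and 8.78%. The 5 enzyme genes with a peak anywhere in the extended gene and an upstream sequence had a median of 38 CpGs (quartiles 23 and 40), and the 30 without a peak 17 (13.2 and 21.8). The median of 38 is the count of Kdm2b, which had no peak over its upstream sequences. The 4 genes with such a peak had 21 (P4ha2), 23 (P4ha3), 40 (Dnmt3a) and 51 (Tet2). The ranges of genes with and without a peak overlapped, since Egln1 equalled Tet2 and Dnmt1 had 26 CpGs before its richest start without a peak. Of the 496 upstream sequences with 38 or more CpGs, 22% lay under a peak in at least 1 library, against 14.2% of all the upstream sequences.

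**Figure D3:**
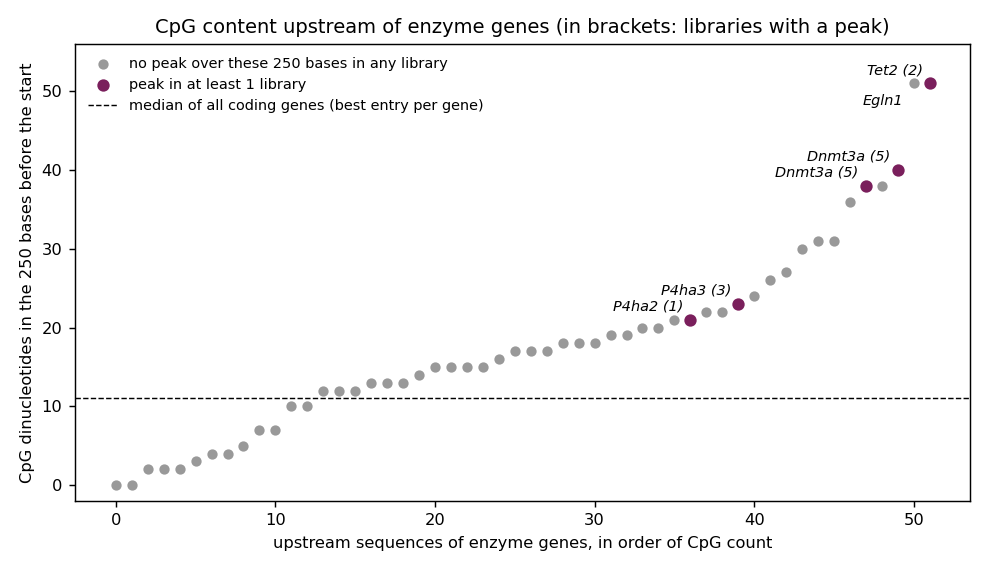
CpG content and peaks. Each point is 1 of the 52 upstream sequences of enzyme genes, in order of CpG count along the horizontal axis, with the number of CpGs in the 250 bases on the vertical axis and the number of libraries with a peak over the sequence in brackets where it is above 0. The dashed line is the median of 11 over all protein-coding genes with an entry, and Tet2 and Egln1 stand level at 51 CpGs, Tet2 with a peak in 2 libraries and Egln1 in 0.

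Among the DNA methyltransferases and their cofactors, Dnmt3a was the marked gene, and Dnmt1, Dnmt3b, Dnmt3l and Uhrf1 had no peak. Dnmt3a (chr12:3801559-3914443, a span of 113 kb) writes methylation on unmethylated DNA, and Dnmt3b shares this role. Dnmt1 copies methylation after replication with the help of Uhrf1, which recognises hemimethylated DNA, and Dnmt3l is a cofactor without catalytic activity. The Dnmt3a peak was called in replicate 1 of 129 with vitamin C, replicate 3 of 129 without, replicates 1 and 4 of B6 with and replicate 4 of B6 without. It was thus seen in every group, and in each group at least 1 library lacked it.

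The 5 Dnmt3a peaks lay over the same stretch. Replicate 1 of 129 with vitamin C had the widest, 10.4 kb from 3801583 to 3812017. Replicate 3 of 129 without vitamin C had a peak of 5.72 kb and replicates 1 and 4 of B6 with vitamin C had peaks of 5.36 and 7.03 kb. In replicate 4 of B6 without vitamin C the peak measured 5.79 kb. All 5 shared 3.24 kb, from 3804460 to 3807698 on chromosome 12. This stretch holds the first start (3806980) and the second (3807160), whose upstream sequences have 38 and 40 CpGs. The third start lies 84.8 kb further on, at 3891744, and was under no peak in any library. The peaks therefore lay within the gene near one end of its span, and covered 4.67% to 9.08% of the extended span.

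The Dnmt3a peaks ranked differently in their own lists. By maximum signal they stood at the 64.6th and 63.4th percentile in replicates 1 and 4 of B6 with vitamin C, above the middle of those lists. In replicate 1 of 129 with vitamin C the peak stood at the 42.7th percentile, in replicate 4 of B6 without vitamin C at the 21.6th and in replicate 3 of 129 without vitamin C at the 15th. With only the peaks at or above the median maximum signal of their list, Dnmt3a remained marked in 2 libraries and no other of the 42 genes remained.

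**Figure D4:**
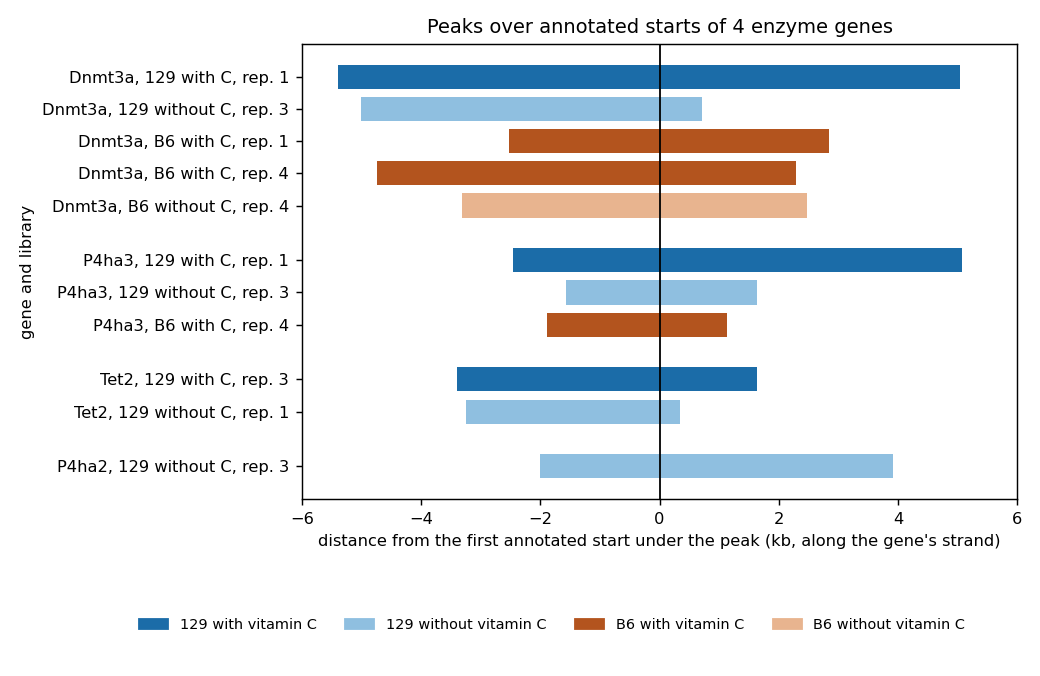
Extent of the peaks over annotated starts of 4 enzyme genes. The horizontal axis is the distance in kb from the first annotated start under the peak along the gene's strand, each bar is the peak of 1 library, and the colours are the 4 groups. All 11 bars cross the start, and the 5 Dnmt3a bars span between 5.36 and 10.4 kb.

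Of the Tet enzymes, which oxidise 5-methylcytosine as the first step of active demethylation, Tet2 was marked and Tet1 and Tet3 were not. Tet2 (chr3:133463677-133545136, 81.5 kb) had a peak of 5.03 kb in replicate 3 of 129 with vitamin C and of 3.59 kb in replicate 1 of 129 without. Both covered the start and the upstream sequence shown above. They were low in their lists, at the 1.3rd and 14.8th percentile of maximum signal. The other 10 libraries, including all 6 of B6, had no Tet2 peak. The nearest peak to Tet1 in any library was 207 kb away and that to Tet3 123 kb away.

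Of the 6 collagen hydroxylases, P4ha2 and P4ha3 were marked, and P4ha1 and the lysyl hydroxylases Plod1, Plod2 and Plod3 were not. P4ha3 (chr7:100285489-100319701, 34.2 kb) had a peak of 7.52 kb in replicate 1 of 129 with vitamin C, of 3.21 kb in replicate 3 of 129 without and of 3.04 kb in replicate 4 of B6 with. All 3 covered the start, at the 8.46th, 19th and 33rd percentile of maximum signal. P4ha2 (chr11:54100924-54131668, 30.7 kb) had 1 peak, of 5.92 kb over its start, in replicate 3 of 129 without vitamin C, at the 37.9th percentile. That library and replicate 1 of 129 with vitamin C also carried the Dnmt3a peak. P4ha1, the main alpha subunit in most tissues, lay 504 kb or more from the nearest peak.

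Of the 10 histone demethylases, Kdm2b and Kdm6b met the rule. The Kdm2b peak covered none of the annotated starts, and for Kdm6b the table used here lists no start or strand, so cover of its start was not scored. Kdm2b (chr5:122870664-122989270, 119 kb) encodes the CXXC-domain protein that brings a variant Polycomb repressive complex 1 to CpG islands. Its peak, 2.61 kb in replicate 4 of B6 with vitamin C, lay 34.6 kb from the nearest of its 4 listed starts and overlapped the gene Gm33118. Kdm6b (chr11:69398508-69420367, 21.9 kb) encodes a demethylase that removes H3K27me3 itself. Its peaks lay outside the annotated gene, 0.528 kb from it in replicate 2 (0.859 kb wide) and 0.05 kb from it in replicate 4 (3.03 kb wide) of B6 with vitamin C. Both lay over the neighbouring gene Dnah2, so the calls at Kdm6b rested on the 1 kb extension. Kdm6a, the other H3K27me3 demethylase of the list, had no peak within 135 kb in any library. Kdm2a, Kdm3a, Kdm3b, Kdm4a, Kdm4b, Kdm4c and Kdm5b, which act on other histone lysines, had no peak either.

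The remaining classes had 0 marked genes. They were the genes of vitamin C synthesis and transport (Gulo, Slc23a1 and Slc23a2) and the oxygen-sensing hydroxylases that act on HIF (Egln1, Egln2, Egln3 and Hif1an). The nucleic acid demethylases Alkbh1, Alkbh5 and Fto, the copper-dependent dopamine hydroxylase Dbh and the carnitine synthesis enzyme Bbox1 were likewise unmarked. So were the DNA glycosylases Tdg and Mbd4, the cytidine deaminase Apobec1, the isocitrate dehydrogenases Idh1 and Idh2, which make 2-oxoglutarate, and Ogt, the O-GlcNAc transferase that binds Tet proteins. Gulo (chr14:65986786-66009254), the gene inactivated in these embryos, had no peak closer than 30.2 kb in any library. Peak lists of a histone mark do not check the Gulo genotype.

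The 36 unmarked genes were not all far from the mark. Measured from the gene span to the nearest peak of any library, 8 of the 42 genes (19%), the 6 marked ones included, came within 10 kb, against 25.5% of all protein-coding genes. Over 100 kb away lay 18 (42.9%) of the 42 and 45.1% of all. The median of the smallest distance was 53.5 kb for the enzyme genes and 77.3 kb for all. Some lay beside a recurrent domain, which was looked at after the distances had been seen. A peak within 50 kb in at least 10 libraries occurred at 4 of the 42 genes (9.52%), all of them unmarked, and at 15.6% of all protein-coding genes. Unmarked genes with such a neighbour made up 6.75% of all protein-coding genes.

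These 4 genes were Kdm5b, Slc23a1, Plod3 and Hif1an. Kdm5b, an H3K4 demethylase, lay 8.84 to 13.8 kb from a peak in all 12 libraries, and that peak was over Syt2 each time. Slc23a1, a sodium-dependent vitamin C transporter, lay 18.4 to 24.4 kb from a peak over Prob1 in 12 libraries. Plod3 lay 22.5 to 35.1 kb from a peak over Vgf in 12. Hif1an, the HIF asparaginyl hydroxylase, had a peak within 50 kb in 11 libraries, and in 8 of them it lay over Wnt8b. In each of these cases the neighbour was covered in most or all libraries and the enzyme gene in 0. Just outside the 1 kb limit, Dnmt3l was 3.28 kb from a peak of replicate 3 of 129 without vitamin C, which lay over Icosl.

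In all, 14 peaks in 8 libraries met the rule, and 11 of them covered an annotated start. Cover of a start was not scored for the 2 at Kdm6b. Their median width was 5.2 kb (0.859 to 10.4 kb), against 4.89 kb for all 31753 peaks. They tended to be low in their lists: 12 of the 14 were below their list's median by maximum signal and 12 by total signal. The median percentile was 32 by maximum signal and 22.9 by total signal.

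Libraries differed in how many of the 42 genes they marked. Replicates 1, 2 and 3 of 129 with vitamin C marked 2, 0 and 1, and those of 129 without marked 1, 0 and 3. Replicates 1, 2 and 4 of B6 with vitamin C marked 1, 1 and 4, and those of B6 without marked 0, 0 and 1. The group means were 1 ± 1 and 1.33 ± 1.53 in 129 with and without vitamin C, and 2 ± 1.73 and 0.333 ± 0.577 in B6 (SD, n = 3 libraries each). The groups overlapped in both backgrounds.

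The number of marked enzyme genes tended to be higher in libraries that marked a larger share of all protein-coding genes. It followed the number of peaks less closely, since the longest list, 4726 peaks in replicate 2 of B6 with vitamin C, marked 1 enzyme gene. The 4 libraries with no marked enzyme gene were the ones that marked the smallest shares of all protein-coding genes, 2.99% to 8.94%. The other 8 marked 9.51% to 17.2%. Replicate 4 of B6 with vitamin C, with the largest share (17.2%), had the most marked enzyme genes, namely Dnmt3a, P4ha3, Kdm2b and Kdm6b. In B6 the share over all protein-coding genes was 12.4% ± 4.23 with vitamin C and 6.73% ± 3.78 without (SD, n = 3). In 129 it was 11.6% ± 2.56 and 11.1% ± 4.91. The part of list size, or of the share over all protein-coding genes, in the counts of the enzyme genes was not tested.

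**Figure D5:**
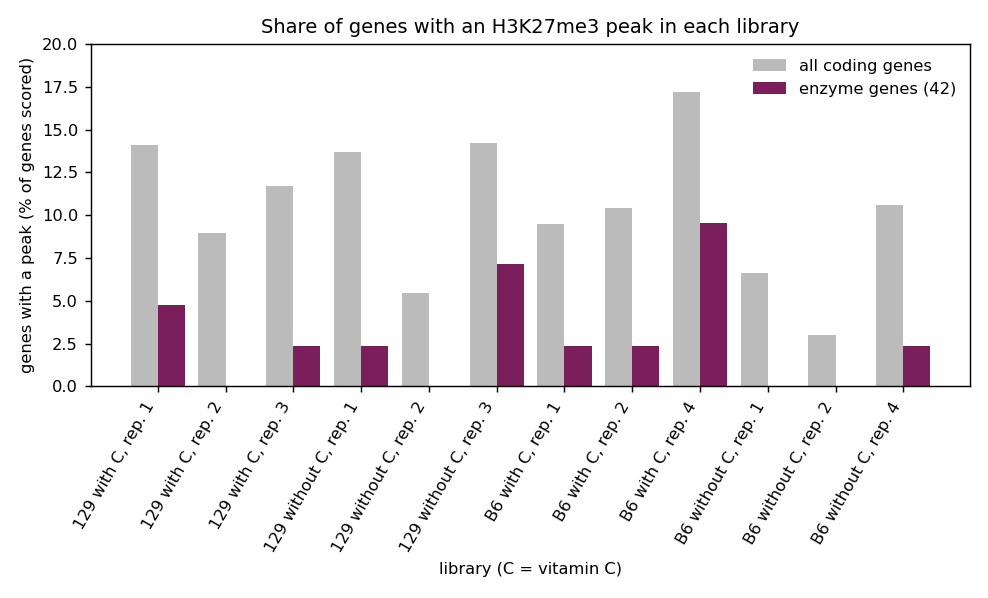
Marked genes per library. The vertical axis is the percent of genes marked, for the 42 enzyme genes and for all protein-coding genes, with a pair of bars for each of the 12 libraries by group. The enzyme genes range from 0% to 9.52% and all protein-coding genes from 2.99% to 17.2%, and in every library the enzyme genes are the lower of the pair.

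The design asks whether vitamin C alters the mark, and in which background. Diet was tested for each of the 3950 protein-coding genes marked in some but not all libraries, by a two-sided exact permutation of diet labels within background with Benjamini-Hochberg adjustment. After adjustment 0 genes were called (0%), and 1 was at unadjusted p under 0.05 (0.0253%). With 400 relabellings the smallest possible p is 0.005, which the adjustment over 3950 genes raises above the threshold, so the design could not call single genes unless many moved together. None of the 6 enzyme genes had an unadjusted p under 0.05. Only Dnmt3a was marked in enough libraries to reach such a p. For the other genes of the 6 the outcome was fixed by the few libraries with a peak, so it does not speak to a diet effect.

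Dnmt3a was marked in 3 of 6 libraries with vitamin C and 2 of 6 without, a difference of 16.7 percentage points (exact permutation p = 1). P4ha3 was marked in 2 of 6 and 1 of 6 (p = 1, exact permutation). Tet2 was marked in 1 library of each diet, Kdm2b in 1 with vitamin C and 0 without, and P4ha2 in 0 with and 1 without (exact permutation p = 1 for each). A gene marked in 1 library, such as Kdm2b or P4ha2, gives this p under any labelling. Kdm6b had the lowest p, with 2 libraries of B6 with vitamin C, 0 of B6 without and 0 of 129, a difference of 33.3 percentage points (exact permutation p = 0.4). That is the lowest p that 2 marked libraries of 1 background can give, so the test could not decide on Kdm6b. The adjusted p was 1 for all 6 in the exact permutation test. Both Kdm6b libraries came from the same pregnancy, and they marked 10.4% and 17.2% of all protein-coding genes.

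Within a background, 3 libraries against 3 cannot give an exact p below 0.1, so complete separation was counted instead. Presence in 3 of 3 libraries of one diet and 0 of 3 of the other occurred at 3 protein-coding genes in 129 (0.0138%) and at 68 in B6 (0.312%). It occurred at 0 of the 42 enzyme genes in either background. These counts over all genes turned on the lists used, and the difference between the backgrounds was not tested. With equal lists of 748 peaks they were 21 in 129 and 13 in B6, the opposite order. Leaving out a library loosens the criterion, because fewer libraries have to agree, so a count can then only stay or rise. With any 1 of the 6 libraries of 129 left out, the count in 129 was 10 to 120, the highest without replicate 2 of 129 without vitamin C. The count in B6 was 421 without replicate 4 of B6 without vitamin C, and 247 and 202 without replicates 1 and 2 of B6 with vitamin C. Kdm6b was among the 247, where its 2 marked libraries were the only ones left of B6 with vitamin C. In the other leave-outs 0 enzyme genes separated the diets.

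The extent of the mark was compared as well. The percent of each extended gene covered by peaks was tested by the same exact permutation in the 4427 genes with any peak, with 0 genes called after adjustment (0%) and 71 at unadjusted p under 0.05 (1.6%). For Dnmt3a the covered share differed by 1.64 percentage points, higher with vitamin C (exact permutation p = 0.5). For P4ha3 it differed by 2.58 percentage points, also higher with vitamin C (exact permutation p = 0.7). The values for P4ha2 and Tet2 were -2.51 and 0.257 percentage points, with vitamin C minus without (exact permutation p = 1 for both). For Kdm6b it was 0.995 percentage points, the lowest p of the 6 genes (exact permutation p = 0.4), and for Kdm2b 0.361 percentage points (exact permutation p = 1). The adjusted p of each enzyme gene in this exact permutation test was 1. As for presence, only Dnmt3a had peaks in enough libraries to reach an unadjusted p under 0.05.

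The backgrounds were compared by the same test with labels permuted within diet. After adjustment 0 of the 3950 genes were called (0%), and 15 were at unadjusted p under 0.05 (0.38%), none of them an enzyme gene. Here too only Dnmt3a was marked in enough libraries to reach such a p. Tet2 was marked in 2 of 6 libraries of 129 and 0 of 6 of B6 (exact permutation p = 0.5, adjusted p = 1). Kdm6b showed the opposite layout, 0 of 6 in 129 and 2 of 6 in B6 (exact permutation p = 0.4, adjusted p = 1). Dnmt3a was marked in 2 of 6 libraries of 129 and 3 of 6 of B6 (exact permutation p = 1).

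Sex was compared because the list holds X-linked genes. After adjustment 0 of the 3950 genes were called (0%) and 1 was at unadjusted p under 0.05 (0.0253%), not an enzyme gene. The X-linked members that could be scored, Kdm6a, which escapes X inactivation, and Ogt, were marked in 0 of the 8 female and 0 of the 4 male libraries. Of the 963 protein-coding genes of the X chromosome 23.1% were marked in at least 1 library. Among autosomal members, Dnmt3a was marked in 3 of 8 female and 2 of 4 male libraries (exact permutation p = 1). Since the 3 B6 embryos with vitamin C share a pregnancy, diet and pregnancy cannot be told apart in that group.

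Genes of the same pathways outside the list were scored alongside, in 5 lists with 106 scored genes. Of these 12 (11.3%) were marked in at least 1 library, 7 in at least 6 and 4 (3.77%) in at least 10. Among 35 other 2-oxoglutarate dioxygenases 4 were marked, and Hr, the hairless demethylase of skin and brain, in 11 libraries. Among 12 further genes of oxygen sensing 2 were marked, and Epas1, which encodes HIF-2alpha, in 11. Among 31 other genes of DNA methylation and demethylation 4 were marked. These included Smug1, a uracil-DNA glycosylase, in 12 libraries, Gadd45b in 11 and Gadd45g in 7. Of 13 genes of vitamin C recycling, glucose transport and copper monooxygenases 2 were marked, Cybrd1 in 8 and Moxd1 in 7 libraries. Of 15 genes of 2-oxoglutarate and methyl donor metabolism 0 were marked.

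Apart from Gadd45g, these genes had peaks with a median percentile of maximum signal above the 32 found for the peaks at the enzyme genes. It was 78.2 for Epas1, 71.5 for Smug1, 62.4 for Gadd45b, 57.4 for Cybrd1, 55.1 for Hr, 53.7 for Moxd1 and 30.6 for Gadd45g. The median width ranged from 3.27 kb at Moxd1 to 15.1 kb at Smug1. Cybrd1, a vitamin C dependent ferric reductase, was marked in all 6 libraries of 129 and in 2 of 6 of B6 (exact permutation p = 0.08, adjusted p = 1). Moxd1, a relative of dopamine beta-hydroxylase, was marked in 3 of 3 B6 libraries with vitamin C and 0 of 3 without, but in 1 of 3 and 3 of 3 of 129, and over both backgrounds the exact permutation p for diet was 1 (adjusted p = 1). Of the 106 genes Moxd1 was the one that separated the diets completely within B6, in the class that held 0.312% of all protein-coding genes.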

How the data were processed

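H3K27me3 CUT&Tag peak lists of 12 single headfolds were analysed. The submitters' processing notes name cutadapt, Bowtie2, Picard, SEACR and the build mm10; in the sources used here neither versions and settings nor the use of IgG in peak calling is stated. Each list holds the peaks of 1 library. The total and maximum signal of each peak are the authors' deposited values, and here they only order peaks inside their own list. Depth is unknown, so peak numbers can follow depth.

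Gene spans came from the RefSeq table of GRCm38.p6, the assembly of mm10. Of 21900 protein-coding genes, 121 with mitochondrial positions or positions below 3 Mb on a chromosome other than Y, which are those of unplaced scaffolds, were left out, Tmlhe among them. The members and the lists were chosen with earlier results of these data known. All members are named, with values where marked. Of the other lists, genes marked in at least 6 libraries are named. Neighbours within 50 kb were chosen after their values were seen. Groups came from the labels. Presence and covered share were tested by exact permutation within background or diet, with Benjamini-Hochberg adjustment and a threshold of 0.05. Of these, the diet test of presence was first run on simulated data, and the background, sex and covered share tests were not. The p-values measure the spread between single embryos, 3 of them of 1 pregnancy. Alternatives were other windows, overlaps and peak filters, lists of equal length, pregnancies averaged and each library left out in turn. Python 3.11.15, NumPy 2.4.6, pandas 2.3.3 and Matplotlib 3.10.9 were used.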

Additional observations from a re-analysis of the deposited data

How the results depend on the processing

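The number of enzyme genes marked in at least 1 library was 6. It was 1 (Dnmt3a) when peaks below the median maximum signal of a list were dropped and 1 (Dnmt3a) with each list limited to its 748 peaks of largest total signal, where 13.4% and 7.31% of all protein-coding genes were marked. Under the other alternatives it was 4 to 6, and 5 to 6 with a library left out. The 4 came from gene starts only, where the 7 enzyme genes without a listed start, Kdm6b among them, could not be marked. The number was 5 without the 1 kb extension, which removed Kdm6b. It was 6 without the 2 libraries of short peaks, a choice made after the lists had been seen. The difference in marked enzyme genes per library, with minus without vitamin C, was 0.667 and ranged from 0.167 to 1.08 with a library left out. That value is the mean of -0.333 in 129 and 1.67 in B6, which differ in sign. The SD between libraries of a group, 1.29, was larger than 0.667 and smaller than the 1.67 of B6. This SD is the spread of single libraries and not the error of a difference between groups, so it decides on neither. The count of enzyme genes that separate the diets within B6 ranged from 0 to 1, and was 1 (Kdm6b) without replicate 1 of B6 with vitamin C. With libraries left out, fewer had to agree, so this criterion was looser and its counts could only stay or rise. Over all protein-coding genes such separation was found at 3 in 129 and 68 in B6. The counts were 15 and 73 without the peaks of low maximum signal and 21 and 13 with equal lists. Without the libraries of short peaks they were 3 and 226. At gene starts only they were 2 and 36, where genes without a listed start could not be counted. In the exact permutation tests 0 genes were called after adjustment under every setting run, for diet, background, sex and covered share. The few relabellings limit all of these tests as they limit the main diet test. Single genes could not be called unless many moved together, so 0 calls under each setting do not show that no gene differed. Genes at unadjusted p under 0.05 numbered 0 to 14, 13 to 64, 0 to 2 and 23 to 216, and the lowest unadjusted p of an enzyme gene was 0.1. No paired analysis was possible because replicate numbers were given in accession order and pair no embryos. Unknown depth limits each absence of a peak.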
